A study of Mus musculus with 8 samples.

Results

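BRG1 and acetylated H3K27 peaks overlapped widely in mouse embryonic fibroblasts (MEFs) undergoing reprogramming with wild-type Nanog and Oct4. Of the 30859 BRG1 peaks, 77.3% (95% Wilson interval 76.8 to 77.7) overlapped an H3K27ac peak, and of the 35452 H3K27ac peaks, 66.5% (66.0 to 67.0) overlapped a BRG1 peak. Peaks of both lists were joined into 42335 regions, out of 95055 regions when all 4 peak lists of the same cells were joined. The 42335 regions fell into 23452 with both BRG1 and H3K27ac (55.4%), 7011 with BRG1 only (16.6%) and 11872 with H3K27ac only (28.0%). The BRG1-only share was 9.28% above a score minimum of 100 and 6.66% above a height minimum of 15 tags, where H3K27ac only made up 45.5%. This height minimum was the same for both lists. Their median heights were 13 tags for BRG1 and 16 for H3K27ac, so it removed a larger part of the BRG1 list. With each peak cut to 100 bp on either side of its summit, regions with both made up 31.4% and BRG1 only 29.8%, and 51.2% of BRG1 and 44.6% of H3K27ac peaks overlapped the other list. The class of a region came from peak overlap of at least 1 bp and from nothing else.

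The cells were MEFs carrying an Oct4-GFP reporter, derived from embryos of either sex and infected with retroviruses for Nanog and Oct4, and were collected on day 5. This arm is called NanogWT here. The arm labelled NanogN70, with Oct4 given in the same way, served for comparison. The labels do not spell out the name, and it is taken here to be the study's fusion of the BRG1 interacting domain of SS18 to the N-terminus of NANOG. Each arm was profiled by CUT&Tag, in which an antibody brings the Tn5 transposase to chromatin, for BRG1, H3K27ac, FLAG and H3K4me1, giving 8 libraries in the series, of which 2 define the regions and 4 more are set beside them. FLAG is the epitope tag used to follow the introduced factor. The starting population was a mixed primary culture, reprogramming is incomplete at this stage, and a peak list reports the average of all cells. Replicates had been merged before peaks were called, so each target had 1 library, no test between libraries was possible, and every interval covers counting error only.

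BRG1, encoded by Smarca4, is an ATPase of the BAF family of chromatin remodelling complexes, which slide and evict nucleosomes. H3K27ac is placed mainly by the acetyltransferases EP300 and CREBBP and is found at active promoters and enhancers, whereas H3K4me1 is found at enhancers whether active or not and on the flanks of promoters. In fibroblasts BAF complexes are known to act with AP-1 factors at enhancers. A BRG1 site without H3K27ac is therefore commonly read as remodeller binding without the mark of activity, and an H3K27ac site without BRG1 as the reverse, although a peak that was not called does not show that the protein or the mark was missing.

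The sequences at the summits of high regions are shown as examples of the DNA in each class. Each line gives the mm10 plus strand, 5′ to 3′, to 50 bp on either side of the BRG1 summit, or of the H3K27ac summit where BRG1 had no peak, in lower case with CG dinucleotides in capitals. Regions with a single mark were ranked by its height, and regions with both by the lower of their BRG1 and H3K27ac height percentiles, so that a region with both can be exceeded in either height alone. The first of each class and location is shown, named by the nearest protein-coding start site, except that a region with ribosomal RNA sequence, described further on, was passed over for Bclaf1. Ties were taken in genome order. By the midpoint of its region Map7d1 lies in an intron, and the others lie in intergenic DNA by the same measure.
Bclaf1 promoter, both, chr10:20312141-20312241: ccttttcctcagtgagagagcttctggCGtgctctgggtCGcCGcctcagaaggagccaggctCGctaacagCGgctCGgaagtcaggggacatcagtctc
Chd2 distal, both, chr7:73618233-73618333: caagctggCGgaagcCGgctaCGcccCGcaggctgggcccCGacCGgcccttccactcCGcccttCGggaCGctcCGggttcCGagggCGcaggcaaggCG
Tmem259 promoter, BRG1 only, chr10:79985084-79985184: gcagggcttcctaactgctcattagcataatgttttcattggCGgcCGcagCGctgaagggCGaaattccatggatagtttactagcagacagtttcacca
Mef2d distal, BRG1 only, chr3:88138798-88138898: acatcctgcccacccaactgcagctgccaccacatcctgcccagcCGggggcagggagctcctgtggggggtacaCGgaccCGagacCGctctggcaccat
Map7d1 promoter, H3K27ac only, chr4:126256400-126256500: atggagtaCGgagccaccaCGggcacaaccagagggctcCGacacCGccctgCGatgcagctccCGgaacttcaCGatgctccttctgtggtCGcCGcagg
Ppp2r5c distal, H3K27ac only, chr12:110381566-110381666: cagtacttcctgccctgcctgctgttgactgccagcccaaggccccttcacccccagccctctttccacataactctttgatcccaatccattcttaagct
The promoter with both marks held 6 CG dinucleotides and the distal region with both held 13, and both BRG1-only sequences held 4. The H3K27ac-only sequences held 9 at the promoter and 0 at the distal region. These are single examples, and the composition of whole classes is given further on.

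A region was called a promoter when it touched the 2 kb on either side of an annotated start site, and distal otherwise. Regions with both were at promoters in 52.2% of cases (51.5 to 52.8), regions with BRG1 only in 22.2% (21.2 to 23.2) and regions with H3K27ac only in 26.9% (26.2 to 27.8). Promoters so defined covered 10.9% of the genome. The gap between regions with both and the other classes was many times wider than the counting error. In numbers, 12233 regions with both were promoters and 11219 distal, 1554 BRG1-only regions were promoters and 5457 distal, and 3199 H3K27ac-only regions were promoters and 8673 distal. The slightly higher promoter share of H3K27ac-only over BRG1-only regions turned around, to 34.7% and 36.2%, when each peak was cut to 100 bp on either side of its summit. Above a height minimum of 15 tags the promoter shares were 69.1% with both, 35.2% with BRG1 only and 44.7% with H3K27ac only.

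**Figure D1:**
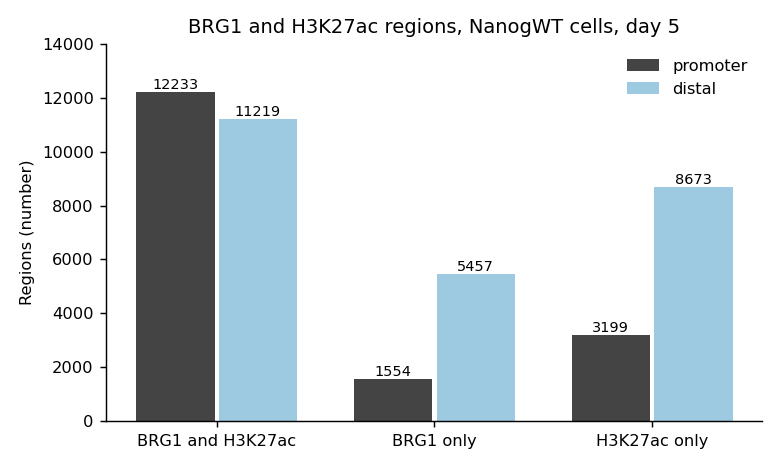
Number of regions (vertical axis) in each class, split into promoter (dark bars) and distal (light bars) regions. The 12233 promoter regions with both stand far above the 1554 with BRG1 only and the 3199 with H3K27ac only, while distal regions are spread more evenly.

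Read from the side of BRG1, 88.8% of its 13827 promoter peaks were acetylated (88.2 to 89.3), against 68.0% of its 17032 distal peaks (67.3 to 68.7). On the side of acetylation, 79.3% of 15464 promoter H3K27ac peaks had BRG1 (78.7 to 79.9), against 56.6% of 19988 distal peaks (55.9 to 57.3), which became 37.2% above a height minimum of 15 tags. With the summit windows the BRG1 shares were 59.2% at promoters and 45.1% at distal sites. Distal sites supplied most of the discordance in both directions. The share of BRG1 peaks that were acetylated ranged from 74.1% on chromosome 12 to 81.2% on chromosome X, with a median of 77.2% over 20 chromosomes.

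The height of a summit is the number of tags piled up at its top, and since heights were not scaled to depth they are compared only within a list. BRG1 heights ran from 6 to 129 tags with a median of 13, and H3K27ac heights from 7 to 103 with a median of 16. Tall BRG1 peaks were nearly all acetylated. At promoters, BRG1 peaks of 6 to 9 tags overlapped H3K27ac in 64.3% of cases, peaks of 13 to 16 tags in 91.3% and peaks of at least 31 tags in 98.6%. Distal BRG1 peaks of the same heights overlapped H3K27ac in 45.3%, 81.6% and 95.4%. Within each of the 6 height classes the distal share was below the promoter share, although in the highest class the intervals overlapped (90.8 to 97.8 and 97.6 to 99.2).

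Tall H3K27ac peaks in turn nearly all had BRG1. At promoters the share with BRG1 went from 34.6% at 7 to 10 tags, through 72.7% at 15 to 18 tags, to 99.3% at 35 tags or more. At distal sites it went from 30.6% through 65.2% to 98.8%. Of the 2656 H3K27ac peaks of 35 tags or more, 21 had no BRG1 peak. Of the 1078 BRG1 peaks of 31 tags or more, 20 had no H3K27ac peak.

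**Figure D2:**
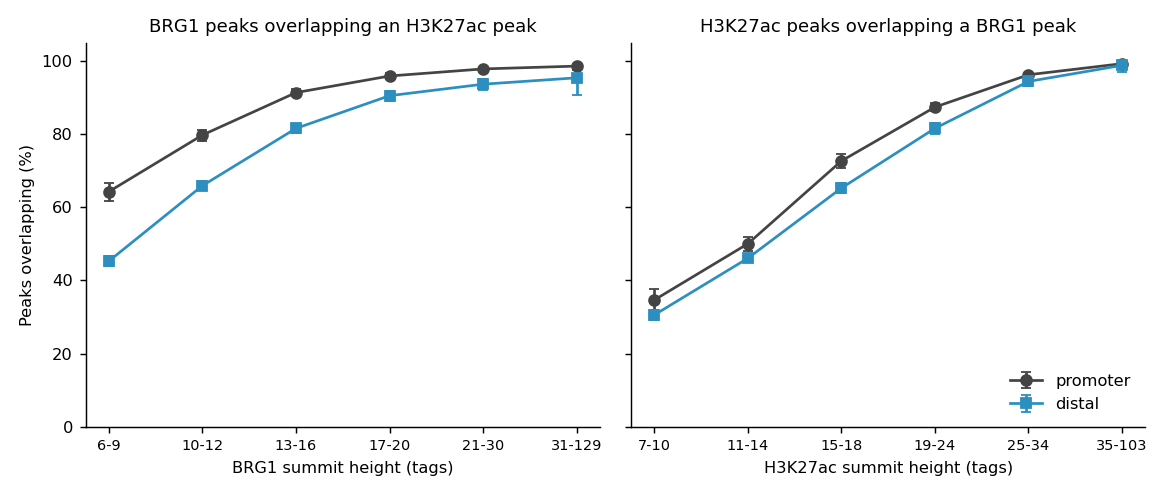
Share of BRG1 peaks overlapping an H3K27ac peak (left) and of H3K27ac peaks overlapping a BRG1 peak (right), in percent, by summit height in tags, for promoter (dark circles) and distal (blue squares) peaks. Bars are 95% Wilson intervals. All 4 lines climb with height, from 45.3% to 95.4% for distal BRG1 peaks and from 30.6% to 98.8% for distal H3K27ac peaks.

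By region, the median BRG1 height was 14 tags with H3K27ac and 10 without, a difference of 0.49 on the log2 scale that was 0.23 above a height minimum of 15 tags and 0.91 with scores in place of heights. At promoters the medians were 16 and 11 tags, and at distal regions 12 and 10. BRG1-only regions were mostly low, and 178 of 7011 (2.54%) reached 20 tags, against 23.8% of regions with both. The median H3K27ac height was 20 tags with BRG1 and 12 without, a log2 difference of 0.74 (1.24 with scores in place of heights), with medians of 24 and 13 tags at promoters and 16 and 12 at distal regions. H3K27ac-only regions reached 20 tags in 901 of 11872 cases (7.59%), against 50.98% of regions with both. Where both peaks were present their heights went together across regions, with a Spearman coefficient of 0.679 over 12233 promoter regions and 0.579 over 11219 distal regions. The points share the cells, the transposase and the mappability of each site, and the coefficients are given as a description.

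The summits of BRG1 and H3K27ac lay close together. In promoter regions with both, the BRG1 summit was a median of 115 bp from the nearest H3K27ac summit, and 75.6% of summits were within 250 bp. In distal regions with both the median was 120 bp and 75.2% were within 250 bp. These medians are shorter than the DNA wrapped on a nucleosome. BRG1-only regions overlap no H3K27ac peak by definition. The nearest H3K27ac peak was a median of 14.04 kb away from them at promoters and 15.9 kb at distal sites, with 8.69% of promoter and 5.40% of distal BRG1-only regions within 1 kb and 24.3% and 18.98% within 5 kb. Distal H3K27ac-only regions were a median of 16.7 kb from the nearest BRG1 peak, with 5.57% within 1 kb. Few regions were thus split from their partner by a narrow gap between called peaks.

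At promoters the position relative to the start site differed between classes. With both present, 75.3% of BRG1 summits and 74.0% of H3K27ac summits that had a protein-coding start site within 2 kb lay within 250 bp of it. BRG1-only summits lay within 250 bp in 39.4% of 1049 cases, with a middle range from -397 to 432 bp, negative values being upstream. H3K27ac-only summits lay within 250 bp in 49.4% of 2258 cases, and 63.1% of them were downstream of the start site, against 55.1% of the H3K27ac summits with BRG1. Part of the promoter class of each single mark therefore lay on the flank of a protein-coding start site. Distances to noncoding start sites, which also define promoters here, were not taken.

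**Figure D3:**
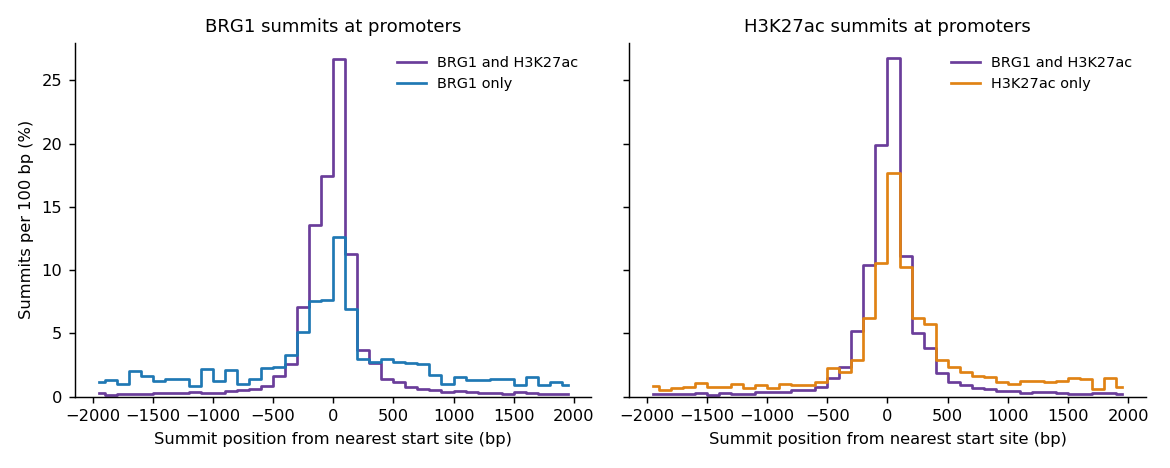
Position of BRG1 summits (left) and H3K27ac summits (right) relative to the nearest protein-coding start site in bp, as percent of the summits within 2 kb per bin of 100 bp. Purple lines are regions with both, and 75.3% (BRG1) and 74.0% (H3K27ac) of their summits lie within 250 bp, while the lines of BRG1-only (blue, 39.4%) and H3K27ac-only regions (orange, 49.4%) are lower and have wider flanks.

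Distal regions of all 3 classes lay in introns far more often than in exons. Introns held 53.4% of distal regions with both, 51.1% of those with BRG1 only and 54.6% of those with H3K27ac only, and exons held 3.56%, 4.08% and 4.37%. The median distance to the nearest protein-coding start site was 29.2 kb with both, 26.5 kb with BRG1 only and 30.7 kb with H3K27ac only. More than 100 kb from a start site lay 20.4%, 20.9% and 23.0% of them.

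FLAG and H3K4me1 were not used to form the classes, and at distal regions both were more frequent where BRG1 and H3K27ac were both present than where a single one was. FLAG peaks, which follow the tagged factor, were found at 92.1% of distal regions with both (91.6 to 92.6), at 61.4% with BRG1 only (60.1 to 62.7) and at 61.5% with H3K27ac only (60.4 to 62.5). The difference between regions with both and with BRG1 only was 30.7 percentage points, with an interval of 29.3 to 32.0, and 16.9 points (14.7 to 19.1) when only peaks with a score of at least 100 were used. At promoters the FLAG shares were 92.5%, 51.9% and 47.1%, and 64.4%, 24.02% and 13.8% with the best 20000 peaks of each list. At distal regions those lists gave 74.4%, 46.4% and 39.4%. H3K4me1 was called at 85.8% of distal regions with both (85.1 to 86.4), at 60.1% with BRG1 only (58.8 to 61.4) and at 67.2% with H3K27ac only (66.2 to 68.2), shares that became 51.5%, 28.4% and 37.3% with the best 20000 peaks. Its promoter shares were 86.6%, 69.6% and 69.1%. Above a score minimum of 100, however, the promoter shares with both (61.7%, 60.6 to 62.7) and with BRG1 only (60.4%, 56.6 to 64.1) had overlapping intervals, beside 46.2% with H3K27ac only. Some 19.96% of distal BRG1-only regions and 15.3% of distal H3K27ac-only regions had neither FLAG nor H3K4me1, against 1.62% of those with both.

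Because regions with both were wider, with a distal median of 1342 bp against 648 bp for BRG1 only and 831 bp for H3K27ac only, the same shares were taken in a window of 250 bp on either side of the summit. FLAG was then at 91.5% of distal regions with both and 61.2% with BRG1 only, and H3K4me1 at 84.4% and 59.8%. The differences were also present among BRG1 peaks of like height, up to 30 tags. At 31 tags or more FLAG was at all 136 distal regions with H3K27ac and at all 7 without. Among distal regions with BRG1 heights of 6 to 9 tags, FLAG was at 86.5% with H3K27ac and 58.1% without, and at 17 to 20 tags it was at 95.8% and 76.3%. H3K4me1 did not climb with BRG1 height in regions with BRG1 only, where it was at 59.4% for 6 to 9 tags and 50.6% (42.9 to 58.4, 156 regions) for 17 to 20 tags, whereas with H3K27ac it was at 83.9% and 88.6%.

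The same regions were then looked up in the NanogN70 cells, whose BRG1 list was longer, with 53748 peaks, and whose H3K27ac list held 42598. Regions with both in NanogWT cells had both peaks in NanogN70 cells in 90.5% of promoter and 77.6% of distal cases. Distal regions with BRG1 only in NanogWT cells had both peaks in NanogN70 cells in 32.6% of cases, BRG1 only in 25.6%, H3K27ac only in 5.86% and neither in 35.95%. Distal regions with H3K27ac only had both in 33.4%, H3K27ac only in 18.3%, BRG1 only in 8.44% and neither in 39.9%. The regions with a single mark were thus also the ones seen less often in the other arm, where 1 library per target means that arm and library depth cannot be told apart.

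**Figure D4:**
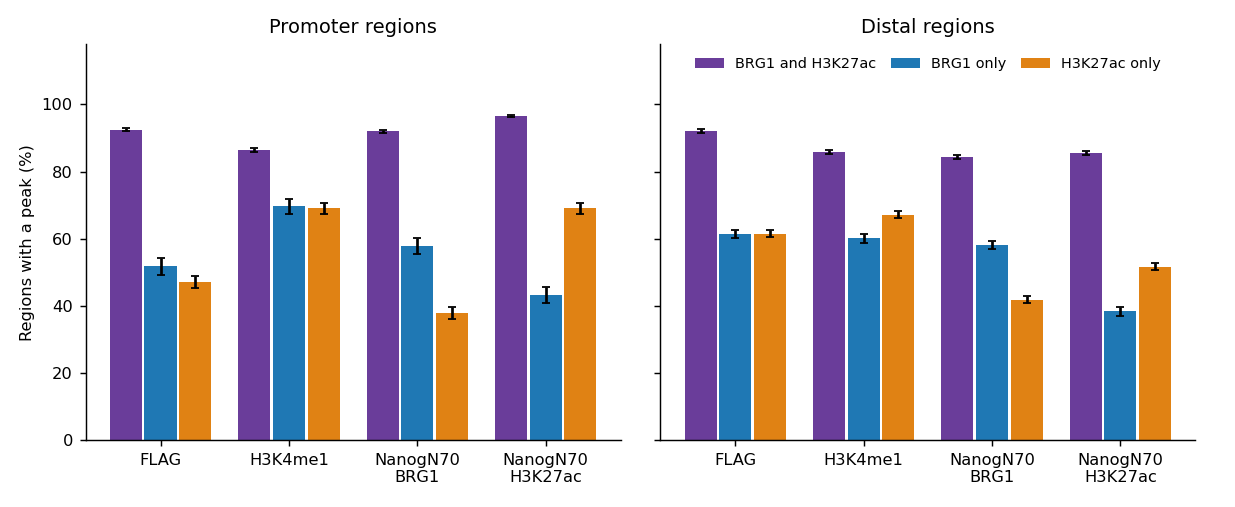
Share of promoter (left) and distal (right) regions of each class with a peak for FLAG or H3K4me1 in the same NanogWT cells, or for BRG1 or H3K27ac in NanogN70 cells, in percent with 95% Wilson intervals. Purple bars (both) are highest for every target, for example 92.1% for FLAG at distal regions against 61.4% for BRG1 only (blue) and 61.5% for H3K27ac only (orange).

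Base composition set the promoter classes apart more than the distal ones. In 501 bp around the BRG1 summit, a window was called CpG-rich when its GC content was over 50% and its observed over expected CpG ratio over 0.6. CpG-rich windows made up 65.6% of promoter regions with both (64.7 to 66.4) and 25.9% of those with BRG1 only (23.8 to 28.2). Around H3K27ac summits they made up 66.6% of promoter regions with both and 28.1% of those with H3K27ac only. Distal regions were CpG-rich in 2.37% of cases with both and 1.21% with BRG1 only, so the distal Chd2 sequence printed above, with its 13 CG dinucleotides, was an exception.

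Short consensus matches were counted on both strands to 50 bp on either side of each summit, for 13 motifs, beside the same count 1 kb away. AP-1 (TGANTCA), bound by FOS and JUN dimers, was the most frequent of the 13 at distal BRG1 summits of either class. It was present at 9.53% of distal BRG1 summits with H3K27ac (8.996 to 10.08) and at 10.4% of those without (9.57 to 11.2), against 3.22% and 2.92% 1 kb away, with overlapping intervals. Split by BRG1 height the order was not steady. At 10 to 12 tags the matches were at 7.98% with H3K27ac (7.14 to 8.91) and 10.3% without (8.99 to 11.7), and at 17 to 20 tags at 11.7% with (10.1 to 13.5) and 9.62% without (5.91 to 15.3). The comparison depended on the peaks used. With peaks cut to 100 bp either side of the summit the matches were at 10.8% with H3K27ac (10.2 to 11.5) and 8.91% without (8.35 to 9.49), and with a score of at least 100 they were at 10.4% with (9.55 to 11.3) and 13.8% without (12.2 to 15.6). At H3K27ac summits the classes did differ. AP-1 was at 10.4% of distal summits where BRG1 was present (9.865 to 10.9965) and 6.46% where it was not (5.961 to 6.996). This order was kept under every alternative run for it. The H3K27ac summits were not split by height, and their distal medians were 16 tags with BRG1 and 12 without. Sequences with the match in capitals are shown for high distal BRG1 summits that held one, chosen after the shares were seen.
Sec16b distal, both, chr1:157646001-157646101: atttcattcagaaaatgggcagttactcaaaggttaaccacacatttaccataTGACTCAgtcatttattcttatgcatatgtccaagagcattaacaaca
Lrrc74a distal, both, chr12:86801228-86801328: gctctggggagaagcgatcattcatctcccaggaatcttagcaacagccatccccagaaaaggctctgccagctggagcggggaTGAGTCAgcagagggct
Gm21969 distal, BRG1 only, chr4:139599006-139599106: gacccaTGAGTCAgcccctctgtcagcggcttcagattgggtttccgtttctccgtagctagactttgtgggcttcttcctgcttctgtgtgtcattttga
Sh3gl1 distal, BRG1 only, chr17:56032273-56032373: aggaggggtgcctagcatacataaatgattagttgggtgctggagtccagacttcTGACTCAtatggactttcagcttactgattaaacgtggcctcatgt
The region near Sec16b had a BRG1 height of 46 tags and an H3K27ac height of 36, and that near Lrrc74a had 37 and 58 tags. The BRG1-only region in an intron near Gm21969 had 33 BRG1 tags, no H3K27ac peak in NanogWT cells and an H3K27ac height of 41 in NanogN70 cells. The BRG1-only region near Sh3gl1 had 28 BRG1 tags and no H3K27ac peak in either arm.

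The octamer ATGCAAAT, bound by OCT4 and other POU factors, was rare. It was at 1.44% of distal BRG1 summits with H3K27ac (1.23 to 1.67) and 0.881% of those without (0.665 to 1.17), against 0.687% and 0.734% 1 kb away. TEAD matches (GGAATG) were at 7.67% and 7.27% and SOX matches (ACAATG) at 6.34% and 5.87%, with overlapping intervals. The CTCF motif was at 22 of 11212 distal BRG1 summits with H3K27ac (0.196%, 0.130 to 0.297) and 22 of 5447 without (0.404%, 0.267 to 0.611). These intervals overlapped, and the shares 1 kb away were 0.0803% and 0.0367%. At promoters the SP and KLF box (GGGCGGGG) was at 7.71% of BRG1 summits with H3K27ac and 2.32% without, and the ETS site (CCGGAAG) at 3.70% and 1.42%, in the same direction as the CpG content. A promoter BRG1 summit without H3K27ac held AP-1 in 5.53% of cases (4.50 to 6.78), against 2.76% with H3K27ac (2.49 to 3.07). Of the remaining motifs, CRE (TGACGTCA), homeobox (TAATGG), RUNX (TGTGGTT), NFY (CCAATNA) and NRF1, and likewise ETS and the SP and KLF box, had overlapping intervals with and without H3K27ac at distal BRG1 summits, and YY1 (AAGATGGC) was at 0.321% and 0.661%. A match is a string of letters and does not show that a factor was bound.

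High regions of each class were described next, by the ranking given above. The tallest region of all, on chromosome 17 (chr17:39842992-39848885), had heights of 129 for BRG1 and 103 for H3K27ac, and also 74 for FLAG and 77 for H3K4me1. It overlaps Gm42418 and AY036118, transcripts that share sequence with ribosomal RNA, and its reads cannot be assigned to this copy with certainty. Next in the ranking, and level in it, were the promoter of Bclaf1, a regulator of transcription and RNA processing, with 48 tags for BRG1 and 61 for H3K27ac, and the promoter shared by Cactin and Pip5k1c, with 48 and 73. The distal regions ranked first lay 75.9 kb upstream of Chd2, a chromatin remodeller (48 and 70 tags), 37.4 kb upstream of Dip2c (46 and 58) and 18.025 kb upstream of Fos, which encodes an AP-1 subunit (48 and 52). All 6 also had FLAG and H3K4me1 peaks, and all 6 had BRG1 and H3K27ac peaks in NanogN70 cells.

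The tallest BRG1-only promoter regions were at Tmem259 (47 tags), at Egln2, which encodes a prolyl hydroxylase of the hypoxia pathway (47 tags), and 1.73 kb into Aida (46 tags). None of the 3 had an H3K4me1 peak, and none had an H3K27ac peak in NanogN70 cells, where BRG1 heights were 46, 37 and 49. The tallest distal BRG1-only regions lay 3.50 kb upstream of Mef2d, a MADS-box transcription factor (39 tags), in an intron of Ankrd33b (36 tags) and in an intron of Tbc1d22b (35 tags). FLAG heights there were 27, 55 and 47, and no H3K27ac peak was called there in NanogN70 cells either. High BRG1 without H3K27ac at these 6 regions was therefore seen in both arms.

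The tallest H3K27ac-only promoter regions were at Map7d1 (65 tags), at Suds3, a subunit of the SIN3 deacetylase complex (55 tags), and at Rara, the retinoic acid receptor alpha (49 tags). In NanogN70 cells H3K27ac was again called at all 3, with heights of 54, 45 and 38, and BRG1 was called at Suds3 (13 tags) and Rara (21 tags) but not at Map7d1. The tallest distal ones, near Ppp2r5c, a regulatory subunit of protein phosphatase 2A, near Hook2, and in an exon of Fam192a, each had 37 tags. The region near Hook2 had no peak in any of the other lists examined, including H3K27ac in NanogN70 cells.

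Nearest genes were counted for distal regions. Rbfox1, a neuronal splicing regulator with a long gene, was nearest to the most regions with both, 20, while its own promoter had neither peak. Tenm4 followed with 16, Zfhx3 with 14, and Frmd4a, Pik3c3 and Rbms3 with 13 each, and all of these had both peaks at the promoter. BRG1-only regions were most numerous near Bmper, a modulator of BMP signalling, Map3k7, the kinase TAK1, and Pde4d, a cAMP phosphodiesterase, with 8 each, and near Dip2b and Rbms3 with 7 each. Around Bmper, Map3k7 and Dip2b they outnumbered regions with both, at 8 against 2, 8 against 4 and 7 against 2. H3K27ac-only regions were most numerous near Gcfc2 (16), Tcerg1l (14), Hs6st1 (12), Auts2 (11) and Enox1 (11), and Rbfox1 and Rbms3 also had 11 each. Near Gcfc2 the median distance to its start site was 421 kb and no BRG1-only region was found. Nearness does not assign a target, and the part of gene length and gene density in these counts was not tested.

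Promoters of protein-coding genes, 21755 in all, were then sorted by the peaks within 2 kb of any of their start sites, where the peaks of both lists need not overlap each other. Both peaks were at 51.5% of promoters, BRG1 only at 2.87%, H3K27ac only at 6.03% and neither at 39.6%. These shares moved with the peaks used, to 40.4%, 1.76% and 11.2% for both, BRG1 only and H3K27ac only above a score minimum of 100, and to 34.6%, 1.32% and 15.3% above a height minimum of 15 tags. Any BRG1 peak was at 54.4% and any H3K27ac peak at 57.5%. The 11208 promoters with both had median heights of 18 tags for BRG1 and 27 for H3K27ac, the 625 with BRG1 only a median of 11 tags and the 1311 with H3K27ac only a median of 14. FLAG was at 94.7% of promoters with both, 52.0% with BRG1 only, 47.7% with H3K27ac only and 6.33% with neither. H3K4me1 was at 90.9%, 86.1%, 78.6% and 24.7%. Counted by gene, BRG1-only promoters were thus near those with both in H3K4me1 and far below them in FLAG. Counted by region the H3K4me1 gap was wider, at 86.6% of promoter regions with both and 69.6% with BRG1 only.

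The labelled cell type was checked with marker genes. Of 20 fibroblast and mesenchymal markers, 14 had both peaks at the promoter, 0 had BRG1 only, 4 had H3K27ac only and 2 had neither, beside 51.5%, 2.87%, 6.03% and 39.6% of all promoters. Vim, the intermediate filament of mesenchymal cells, had 46 BRG1 tags and 49 H3K27ac tags. Pdgfra, a growth factor receptor, had 30 and 28, Twist1, a mesenchymal transcription factor, 27 and 24, and the collagen gene Col1a1 22 and 20. Fn1, encoding fibronectin, had 23 and 27 tags, and Thy1, a fibroblast surface protein, 23 and 44. The 4 with H3K27ac only were Zeb2 (29 tags), Pdgfrb (22), Col3a1 (11) and Dcn (8), and Lum and Prrx1 had neither. Of 16 markers of blood, endothelium, neurons, muscle, liver and glia, 12 had neither peak, among them Ptprc, Pecam1, Myod1 and Alb. The other 4 had both, namely Snap25 (28 and 11 tags), Csf1r (14 and 20), Tek (14 and 16) and Syt1 (11 and 15). That count fell to 2 above a score minimum of 100 and to 0 above a height minimum of 15 tags. The genes lost from it moved to a single mark and not to neither. Above the height minimum 3 of the 4 had H3K27ac only and the other had BRG1 only. The fibroblast count with both fell from 14 to 10 and 11 under these settings, beside 40.4% and 34.6% of all promoters. A promoter peak does not show that the gene is expressed.

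Pluripotency genes were mostly without either peak. Of 24, 6 had both, 1 had BRG1 only, 0 had H3K27ac only and 17 had neither, including Nanog, Pou5f1, Sox2, Esrrb, Sall4 and Dppa5a, beside 51.5%, 2.87%, 6.03% and 39.6% of all promoters. The BRG1-only count fell to 0 above a score minimum of 100, for the best 20000 peaks of each list and above a height minimum of 15 tags. The 6 with both were Tbx3 (27 BRG1 and 30 H3K27ac tags), Klf2 (23 and 29), Klf4 (23 and 33), Klf5 (17 and 24), Gdf3 (13 and 26) and Tfcp2l1 (8 and 14). Several of these, such as Klf4 and Tbx3, are also used by somatic cells. Of the 17 genes with neither peak at the promoter, 13 were the nearest gene of no distal region with both, and 4 were the nearest gene of at least 1, with 4 such regions for Nanog, 3 for Sox2, 2 for Nr5a2 and 1 for Dppa4. Over all 8611 genes with neither peak, 14.6% were the nearest gene of at least 1. Nanog was itself introduced by retrovirus, and whether reads of that copy form part of its regions was not tested.

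Lineage genes held several of the promoters with BRG1 and no acetylation. Among 20 germ layer regulators, transcription factors that direct the early lineages, 4 had BRG1 only, 2 had both, 0 had H3K27ac only and 14 had neither, beside the 2.87% of all promoters with BRG1 only. The 4 were Neurog2 (12 tags), a neuronal factor, Tbx6 (12 tags), a factor of paraxial mesoderm, Eomes (10 tags), of mesendoderm, and Pax6 (9 tags), of neuroectoderm and eye. Each had an H3K4me1 peak, at heights of 19, 23, 16 and 19 tags, as did 12 of the 14 genes with neither BRG1 nor H3K27ac, where over all genes H3K4me1 was at 86.1% of BRG1-only promoters and 24.7% of those with neither. Sox1 (15 and 20 tags) and Gata6 (12 and 11) had both. Among 15 epithelial genes, 3 had BRG1 only, namely Krt8 (16 tags), a keratin, Cldn3 (11), a tight junction protein, and Dsp (9), a desmosomal protein, 2 had both, namely Crb3 (20 and 22) and Tjp1 (16 and 31), 1 had H3K27ac only, Grhl2 (14), and 9 had neither, Cdh1 and Epcam among them. All 15 had H3K4me1. These BRG1 summits ran from 9 to 16 tags, beside a median of 13 over the whole list, and with only summits of at least 15 tags kept the BRG1-only counts were 0 of the germ layer genes and 1 of the epithelial genes, beside 1.32% of all promoters.

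Most genes of the chromatin machinery itself had both. All 15 genes of a list of acetylation regulators and associated chromatin factors did, beside 51.5% of all promoters. Among them were Mbd3, a subunit of the NuRD deacetylase complex (41 BRG1 and 42 H3K27ac tags), Brd2 (37 and 56), Crebbp (33 and 45), Hdac2 (27 and 63), Kdm6a, an H3K27 demethylase (26 and 32), and Kmt2c, an H3K4 methyltransferase (26 and 24), with the acetyltransferase gene Ep300 at 23 and 52. Of 31 BAF and PBAF subunit genes, 28 had both, again beside 51.5%, led by Smarca4 itself (39 and 40 tags), Smarcd2 (32 and 26), Bcl7b (29 and 46), Arid2 (27 and 39), Actl6a (26 and 28) and Pbrm1 (25 and 34). The 2 with BRG1 only were Smarcd3 (14 tags), a subunit known from heart and muscle, and Actl6b (10 tags), a neuronal subunit, and Dpf1, another neuronal subunit, had neither. Here the BRG1-only count fell to 1 above a score minimum of 100 and to 0 above a height minimum of 15 tags, beside 1.76% and 1.32% of all promoters.

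AP-1 genes carried some of the higher promoter summits. Of 10, 8 had both and 2, Batf and Batf3 of lymphoid and myeloid cells, had neither, beside 51.5% and 39.6% of all promoters. Jun had 45 BRG1 and 47 H3K27ac tags, Fosl2 44 and 51, Jund 41 and 50, Fos 33 and 41, Atf3 32 and 33 and Junb 30 and 50. The median BRG1 height of the AP-1 promoters with a peak was 32.5 tags, against 18 over all promoters with both. With only peaks of a score of at least 100, however, the number with both was 3 of 10, beside 40.4% of all promoters. Among 12 genes of the TEAD and Hippo pathway, which restrains the coactivators YAP and TAZ, 11 had both and Ankrd1 had H3K27ac only (12 tags), beside 51.5% and 6.03%. Amotl2 had 32 and 37 tags, Ccn2 30 and 30, Wwtr1, which encodes TAZ, 29 and 42, Tead1 25 and 36, Tead3 25 and 33 and Ccn1 22 and 36. Ribosomal protein genes had both at 72 of 79, H3K27ac only at 4 (among them Rpl35, Rpl36 and Rpl6, with 36, 32 and 30 tags) and neither at 3, the tissue-restricted copies Rpl3l, Rpl10l and Rpl39l, beside 51.5%, 6.03% and 39.6% of all promoters. The H3K27ac-only count went to 21 above a score minimum of 100 and to 24 above a height minimum of 15 tags, beside 11.2% and 15.3% of all promoters. The highest ribosomal protein promoters for BRG1 were Rps19 (41 and 38 tags), Rpl37 (37 and 41), Rps29 (34 and 37), Rps21 (31 and 35), Rpl7 (30 and 39) and Rps14 (30 and 55).

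**Figure D5:**
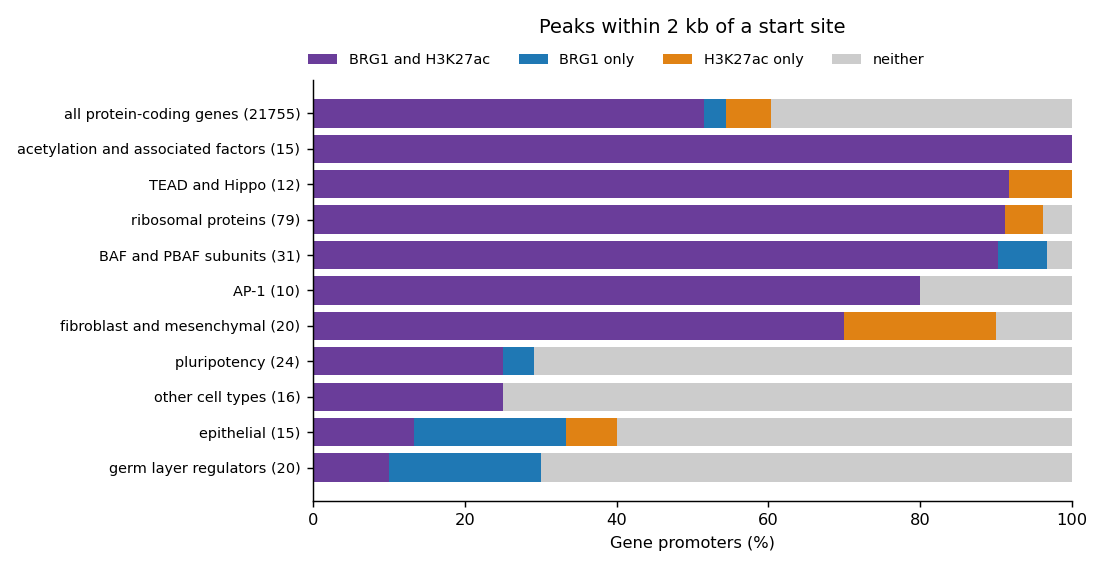
Share of gene promoters, in percent, with both peaks (purple), BRG1 only (blue), H3K27ac only (orange) or neither (grey) within 2 kb of a start site, for all protein-coding genes and for 10 gene lists with the number of genes in brackets. The blue part is widest for the epithelial (3 of 15) and germ layer (4 of 20) lists, against 2.87% over all genes.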

How the data were processed

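CUT&Tag libraries of MEFs on day 5 of reprogramming were analysed from the deposited peak and summit lists. The authors trimmed reads (Trim Galore 0.6.4), aligned them to mm10 (Bowtie2 2.4.5), removed repetitive, mitochondrial and low-quality reads (mapq under 30, SAMtools 1.16.1), merged replicates and called peaks with MACS 1.4.2 (shiftsize 25, duplicates kept at 1). The score deposited with each peak is the scaled -log10 p of MACS, at least 50 in each list, and the deposited summit signal is the tag pileup, not scaled to depth. Total reads per library are unknown.

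Here peaks overlapping by 1 bp or more were joined, with start sites and genes from GENCODE M21 and sequences from the GRCm38 assembly of RefSeq (mm10), using Python 3.11.15, numpy 2.4.6, pandas 2.3.3, scipy 1.17.1 and matplotlib 3.10.9. Shares have 95% Wilson intervals, and no test was run because each group held 1 merged library. The classifier was tested on simulated data. The members, the 10 gene lists and the motifs were chosen with earlier results of these data known. Named were the first 3 regions of each class and location on chromosomes 1 to 17, 19 and X, ranked by height for a single mark and by the lower of the 2 height percentiles for both, with ties in genome order, the 5 genes nearest to the most distal regions of each class, up to 6 genes per list with the highest promoter BRG1 summit, and the members of a list with a single mark where there were 5 or fewer. Some genes that this rule names are not reported here. Names outside this rule, such as Ep300, Col1a1, Nanog and the genes without peaks, were chosen after their values were seen. Alternatives were score, height and number cutoffs, chromosome set, overlap rule, peak width, bridged gaps, promoter width, start site set and score in place of height.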

Additional observations from a re-analysis of the deposited data

How the results depend on the processing

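The signs of the 2 height ratios and of the FLAG and H3K4me1 differences were kept under every alternative run for them. Of 24 orders between classes or locations, 22 were kept under every alternative run for them, and the other 2 (the promoter share of H3K27ac-only over BRG1-only regions, and AP-1 at distal BRG1 summits) turned around with summit windows of 100 bp. Sizes did move, and the cause was not tested. BRG1 peaks with H3K27ac were 85.6% above a score minimum of 100, 74.6% with the best 20000 peaks of each list, 63.7% when 50% of each peak had to overlap, 51.2% with summit windows and 87.9% at a height of at least 15. H3K27ac peaks with BRG1 were 61.0%, 74.2%, 55.4%, 44.6% and 51.4% under the same settings in that order.

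The promoter share of regions with both was 65.4% at the higher score, 63.9% with 20000 peaks, 50.3% with summit windows, 49.2% with promoters of 1 kb, 47.1% with protein-coding start sites and 69.1% at the greater height. For BRG1 only it was 29.2%, 27.5%, 36.2%, 16.8%, 16.4% and 35.2%, and for H3K27ac only 40.5%, 40.1%, 34.7%, 22.1%, 20.6% and 44.7%. The log2 ratio of median BRG1 heights was 0.42 at the higher score, 0.50 with 20000 peaks, 0.45 with summit windows, 0.23 at the greater height and 0.91 with scores in place of heights, and that of H3K27ac heights was 0.64, 0.58, 0.51, 0.58 and 1.24. The FLAG difference at distal regions was 16.9 percentage points at the higher score, 28.0 with 20000 peaks and 23.7 at the greater height. The H3K4me1 difference was 22.8 points at the higher score, 23.1 with 20000 peaks and 30.2 with summit windows. Protein-coding promoters with both were 40.4% at the higher score, 43.8% with 20000 peaks, 50.6% with summit windows, 50.2% with promoters of 1 kb and 34.6% at the greater height. The other 25 of 74 main comparisons stayed within their counting intervals, among them the window of 250 bp at the summit, which was added after the data were seen.

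Among gene lists, besides the counts given with the lists above, AP-1 promoters with H3K27ac only went from 0 to 4 at the higher score, and BAF and PBAF promoters with H3K27ac only from 0 to 7 there and to 4 at the greater height, while over all promoters H3K27ac only went from 6.03% to 11.2% and 15.3%. Peaks near the calling threshold limit every class with a single mark, since a peak just missed in the other list moves a region into it. Such peaks are not only low ones, since a tall summit can have a low score. AP-1 promoters with both were 7 at the greater height but 3 at the higher score. No paired analysis was possible because each target and arm had 1 merged library. No replicate was left out, for the same reason.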
